A study of Mus musculus with 12 samples.

Results

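A set of 10 genes of prostaglandin synthesis, transport, breakdown and reception were followed in lung lymphatic endothelial cells (LECs) of mice exposed to cigarette smoke (CS) or room air (RA). They are Hpgd, Slco2a1, Ptgs1, Ptgs2, Ptgis, Ptges, Ptgds, Tbxas1, Ptger4 and Ptgir, 10 of the 52636 genes in the count tables, and all 10 passed the filter on low counts. They were chosen by symbol as a pathway and because Hpgd had one of the strongest changes after acute CS. Their acute values, counts past a limit included, are therefore given as a description from which nothing is tested, whereas the chronic comparison did not enter the choice. The comparison of the RA controls shares the 2 acute RA libraries with the contrast that chose Hpgd, so it is not independent of the choice, and the members are described there without a test.

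The libraries came from Prox1-EGFP mice, in which regulatory sequence of the lymphatic transcription factor gene Prox1 drives a green fluorescent protein. Lung cells were sorted as live, GFP+ and CD31+ (an endothelial surface protein), and negative for EpCAM and lineage markers. There were 2 acute CS libraries (F and M), 2 acute RA libraries (F and M), 5 chronic CS libraries (F, M1, M2, M3 and M4) and 3 chronic RA libraries (F, M1 and M2), where the letter is the sex and the digit the number in the label. Acute CS was whole-body exposure to cigarette smoke for 8 weeks and chronic CS for 24 weeks or more, on 5 days a week from 6 weeks of age, and RA mice breathed room air for the same time. The labels give the acute mice as 8 weeks old and the chronic mice as aged, whereas in the study's methods they are lengths of exposure, as taken here. All 4 groups carry the Prox1-EGFP transgene. Each acute library pooled cells of 2 to 5 mice and chronic libraries were not pooled, so pooling and length of exposure cannot be told apart. Nothing states whether all libraries of a group came from separate animals, and p-values measure the spread between these libraries.

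Prostaglandins are made when phospholipases free arachidonic acid from membranes and cyclooxygenases turn it into a common precursor. Terminal synthases then form prostacyclin, thromboxane or the prostaglandins E, D and F, which act on G protein coupled receptors of nearby cells. The action of prostaglandins of the E and F series ends when a transporter takes them up and a dehydrogenase oxidises them. The lung is a main site of this clearance, and lymphatic vessels respond to prostanoids with changes in tone and growth.

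The promoter sequences of the breakdown enzyme, the transporter and the inducible cyclooxygenase are shown first, since smoke is known to activate transcription factors that bind short DNA motifs. Each is the 250 bases before the transcription start in RefSeq (GRCm38.p6), 5′ to 3′ on the plus strand, for Hpgd at chr8:56294302-56294551, for Slco2a1 at chr9:103008237-103008486 and for Ptgs2 at chr1:150099781-150100030. Capitals mark GCGTG, the core that the aryl hydrocarbon receptor binds, or its reverse complement CACGC.
Hpgd: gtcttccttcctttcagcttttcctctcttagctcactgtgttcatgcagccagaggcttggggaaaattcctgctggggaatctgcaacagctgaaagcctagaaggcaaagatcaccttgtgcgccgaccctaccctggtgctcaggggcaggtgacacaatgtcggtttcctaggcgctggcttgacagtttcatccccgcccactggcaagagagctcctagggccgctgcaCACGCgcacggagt
Slco2a1: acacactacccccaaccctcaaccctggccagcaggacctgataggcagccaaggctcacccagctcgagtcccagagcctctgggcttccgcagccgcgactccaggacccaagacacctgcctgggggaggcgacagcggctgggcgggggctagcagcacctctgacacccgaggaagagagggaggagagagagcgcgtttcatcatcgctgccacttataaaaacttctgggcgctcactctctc
Ptgs2: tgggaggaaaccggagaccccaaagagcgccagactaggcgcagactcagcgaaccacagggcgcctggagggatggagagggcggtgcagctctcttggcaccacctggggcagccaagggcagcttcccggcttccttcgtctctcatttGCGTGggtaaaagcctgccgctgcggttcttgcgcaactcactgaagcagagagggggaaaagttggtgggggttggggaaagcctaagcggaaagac
The core was present on either strand in 3 of the 9 members with a RefSeq promoter (Hpgd, Ptgs2 and Ptges) and in 28.2% of all 32851 promoter windows of the same length. In Hpgd it lay on the minus strand, from 14 to 10 bases before the start, and in Ptgs2 on the plus strand, from 98 to 94 bases before the start. Slco2a1 had no match in this window. The AP-1 motif TGANTCA was found in Ptgds and Tbxas1 (6.75% of all windows), the antioxidant response motif TGACNNNGC in Ptgir (10.2%), the NF-kB motif in Ptgds (7.25%) and the cAMP response motif TGACGTCA in 0 of the 9 (1.55%). These matches describe letters in the sequence and were not tested as binding sites.

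Total counts per library were lowest in chronic CS F (18821438) and highest in acute RA F (56998590), and a count of 3, the floor of detection for counting error alone, was worth 0.158 CPM and 0.0507 CPM in these libraries. The libraries of each group stood apart beyond sampling noise. Of the 7 lymphatic markers, 6 were present at high levels (Prox1 at 1042 to 2476 CPM over the 12 libraries), and Ccl21a was at 1.06 CPM or less in every library. The acute CS libraries held less of the lymphatic markers and more of those of other cell types, which is set out beside the acute results.

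Per exon length, the order of the members was led by breakdown and uptake in every group. In acute RA, Hpgd was at 49.8 ± 13.5 FPKM (SD, n = 2) and Slco2a1 at 9.58 ± 0.939 FPKM (SD, n = 2), and the lowest Hpgd library lay above the highest Slco2a1 library in each of the 4 groups. This order depends on the exon lengths used, 1683 bases for Hpgd and 13545 for Slco2a1. In mean CPM, Slco2a1 was above Hpgd in acute RA (130 against 83.8) and chronic CS (192 against 155). It was below Hpgd in chronic RA (88.8 against 92.9) and acute CS (878 against 1016). The cyclooxygenase genes Ptgs1 and Ptgs2 and the prostacyclin synthase gene Ptgis came next, at 2.80 to 3.06 FPKM in acute RA. The ranges of neighbours among these 3 genes overlapped in all 4 groups, so that they have no order among themselves. The remaining 5 members lay at 0.631 FPKM or less on average in both RA groups. Among them, Tbxas1 and Ptgir had the lowest mean FPKM in both RA groups, but the range of Tbxas1 overlapped those of Ptgds and Ptgir in each group. Ptgds and Ptgir overlapped in chronic RA. In acute RA every Ptgds library (0.328 FPKM or more) lay above every Ptgir library (0.278 FPKM or less). The place of Tbxas1 also depends on its exon length of 9094 bases. In mean CPM, it was the highest of these 5 members in acute RA (2.81). In chronic RA it was at 1.35 CPM, below Ptger4 (4.20) and Ptges (1.71).

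**Figure D1:**
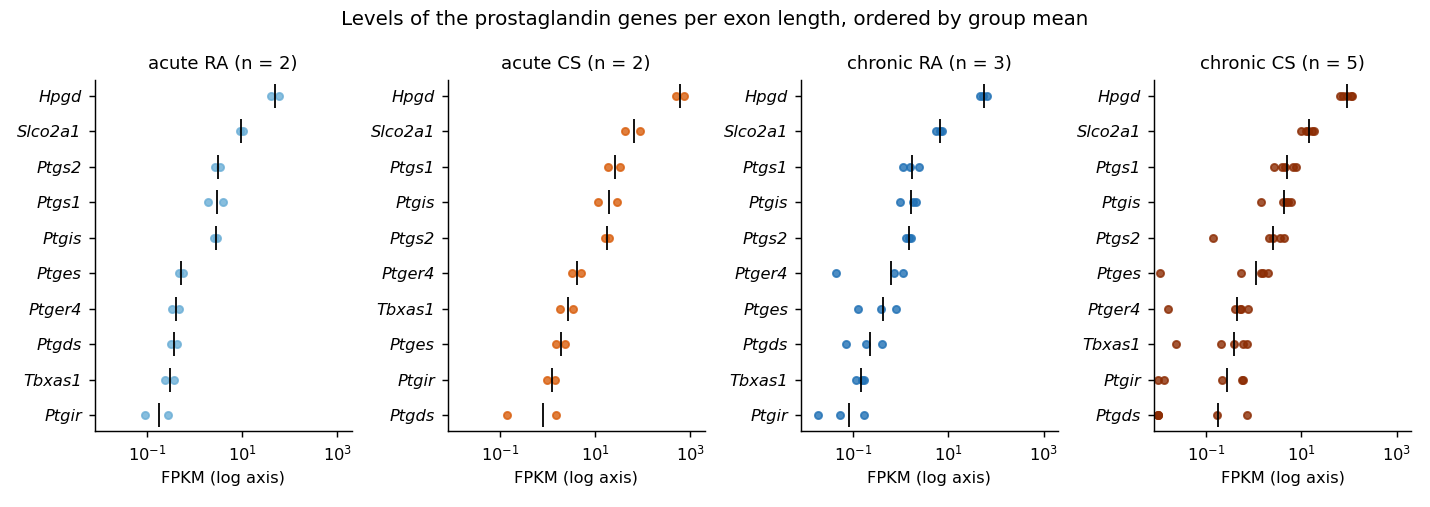
Levels of the 10 genes in FPKM (log axis) in each group, with 1 point per library and a black bar at the group mean, ordered by the mean. Libraries below 0.01 FPKM are drawn at 0.01. Hpgd was first and Slco2a1 second in each group, at 49.8 and 9.58 FPKM in acute RA.

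Hpgd (ENSMUSG00000031613, chromosome 8 of GRCm38, 56294585 to 56321043) encodes the dehydrogenase that inactivates prostaglandins of the E and F series. It was counted at 99.9 CPM in acute RA F and 67.7 CPM in acute RA M, and at 1205 CPM in acute CS F and 826 CPM in acute CS M. Both acute CS libraries were far above every other library of the study, which reached at most 197 CPM. The acute log2 fold change was 3.60 (SE, the standard error of the fit, 0.34), a 12.1-fold higher level.

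Slco2a1 (chromosome 9, 102988712 to 103096002), the prostaglandin transporter gene, was at 138.7 and 120.7 CPM in acute RA F and M and at 1192 and 564 CPM in acute CS F and M. It was thus higher in both acute CS libraries, with the female library above the male. Its acute log2 fold change was 2.76 (SE 0.36), a 6.77-fold higher level. Without acute CS F it was 2.12.

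Ptgs1 (chromosome 2, 36230426 to 36252272), the gene of the constitutive cyclooxygenase, was at 15.5 and 7.32 CPM in acute RA F and M and at 72.7 and 127.4 CPM in acute CS F and M. Here the male acute CS library was the higher. Its acute log2 fold change was 3.13 (SE 0.57) and 3.77 without acute RA F. Ptgs2 (chromosome 1, 150100031 to 150108227), the inducible cyclooxygenase, was at 15.6 and 12.4 CPM in acute RA and at 90.1 and 75.1 CPM in acute CS, in the order F and M. Its log2 fold change was 2.56 (SE 0.92). The cyclooxygenase genes thus lay at similar levels in the RA and in the CS libraries, with no overlap between the exposures.

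Of the terminal synthases, Ptgis (chromosome 2, 167191805 to 167240604), which makes prostacyclin, was at 7.76 and 6.60 CPM in acute RA F and M and at 29.2 and 72.5 CPM in acute CS F and M. Its log2 fold change was 2.82 (SE 0.64) and 2.02 without acute CS M. Tbxas1, the thromboxane synthase gene, was at 3.46 and 2.16 CPM in acute RA and at 31.4 and 16.5 CPM in acute CS, and its log2 fold change was 3.09 (SE 1.06). Ptgis was thus higher in the male acute CS library and Tbxas1 in the female. Ptges, the inducible synthase of prostaglandin E2, was at 2.25 and 1.83 CPM in acute RA and at 9.32 and 5.86 CPM in acute CS, and its log2 fold change was 1.89 (SE 1.35). Ptgds, the lipocalin-type synthase of prostaglandin D2, was at 0.541 and 0.700 CPM in acute RA and at 0.236 and 2.43 CPM in acute CS, so its groups overlapped.

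The receptors were low in RA. Ptger4, which encodes the EP4 receptor for prostaglandin E2, was at 2.20 and 3.14 CPM in acute RA F and M and at 21.3 and 34.0 CPM in acute CS F and M, and its log2 fold change was 3.37 (SE 1.36). Of its exon bases, 15.3% overlap the processed pseudogene Gm15937 on the other strand, and the counting is not stated to use strand. Ptgir, the prostacyclin receptor gene, was at 0.304 and 0.927 CPM in acute RA and at 4.77 and 3.32 CPM in acute CS, and its log2 fold change was 2.71 (SE 1.73), 2.12 without acute RA F and 3.69 without acute RA M. Both receptor genes were higher in both acute CS libraries than in either acute RA library.

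Across the 10 members, 10 were higher in acute CS, and the log2 fold change had a median of 2.79 against 0.04 over all genes tested. For 9 of the 10, every acute CS library lay above every acute RA library, where 27.4% of all genes did so. The contrast by which Hpgd was chosen also gives the following counts, from which nothing is read. Past an adjusted p under 0.05 lay 4 members (Hpgd, Slco2a1, Ptgs1 and Ptgis), all higher, and over all genes 3.47% lay past this limit and 2.75% past it and higher. The counts depended on single libraries, with 0 members past the limit without acute RA M and 2 without acute RA F, while over all genes the number past the limit was then 3 and 79, against 745 with all libraries.

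**Figure D2:**
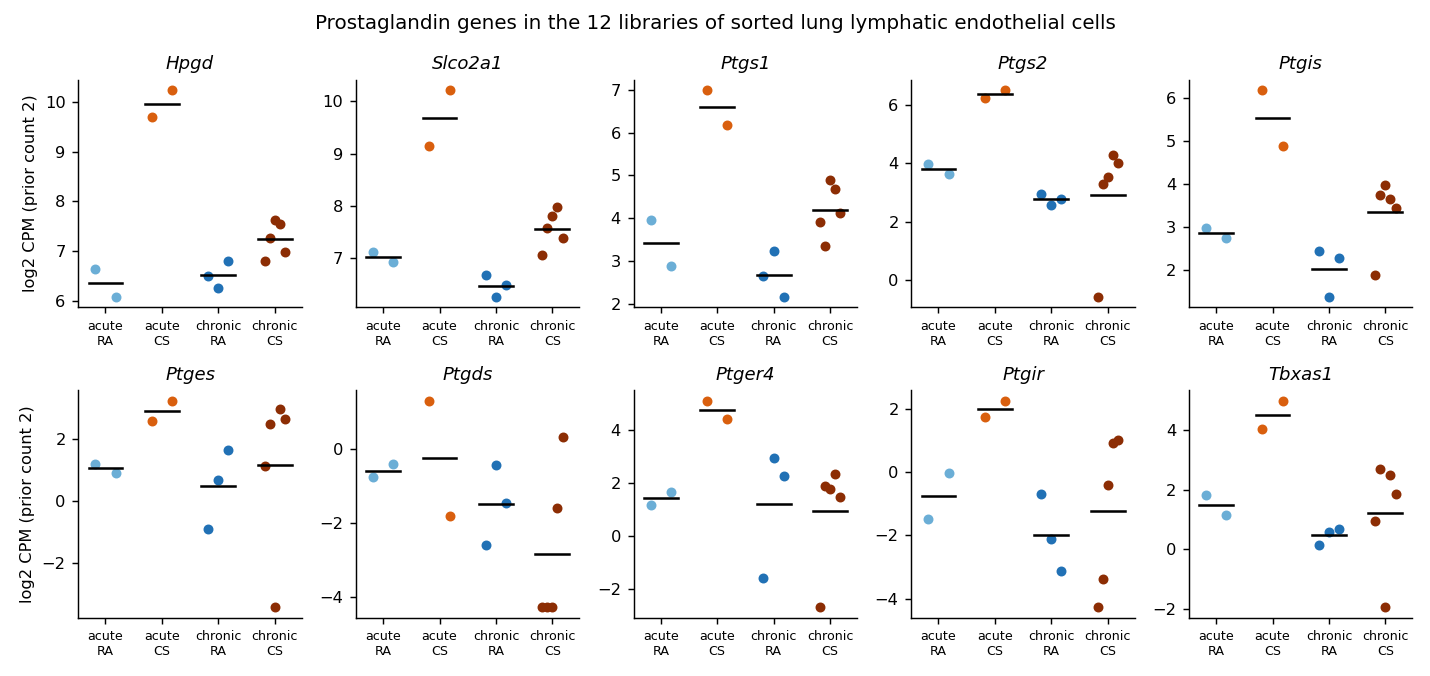
Levels of the 10 genes as log2 CPM (prior count 2), with 1 point per library and a black bar at the group mean of these values. The acute CS points of all genes but Ptgds lie above the acute RA points. For Hpgd the acute CS libraries (826 and 1205 CPM) are above the other 10 libraries.

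Markers of other cell types were also higher in acute CS. The summed level of 7 alveolar macrophage markers was 3373 to 6070 CPM in acute CS and 339.5 to 420 CPM in acute RA, with 7 of 7 higher on average, and Marco and Siglecf at 0 CPM in 1 acute RA library. Leukocyte and lymphoid markers (8 of 8 higher) summed to 550 to 770 CPM against 52.6 to 56.3 CPM, mesenchyme markers (8 of 8) to 635 to 1016 CPM against 132 to 204 CPM, and blood endothelium markers (8 of 8) to 6778 to 7366 CPM against 2859 to 3669 CPM. The lymphatic markers (1 of 7 higher) summed to 5904 to 9073 CPM against 13513 to 15243 CPM. Epithelial markers were at 8461 CPM in acute CS F and 218.5 CPM in acute CS M, on either side of acute RA at 1038 to 1835 CPM. Platelet markers (4 of 5 higher), listed because platelets make thromboxane, summed to 17.2 to 49.7 CPM against 11.5 to 15.5 CPM. Mast cell and basophil markers (4 of 4 higher) summed to at most 3.55 CPM in the 4 acute libraries. The part of these cells in the acute values of the members was not tested, and in sorted bulk samples fewer cells of a type and less RNA per cell cannot be told apart.

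**Figure D3:**
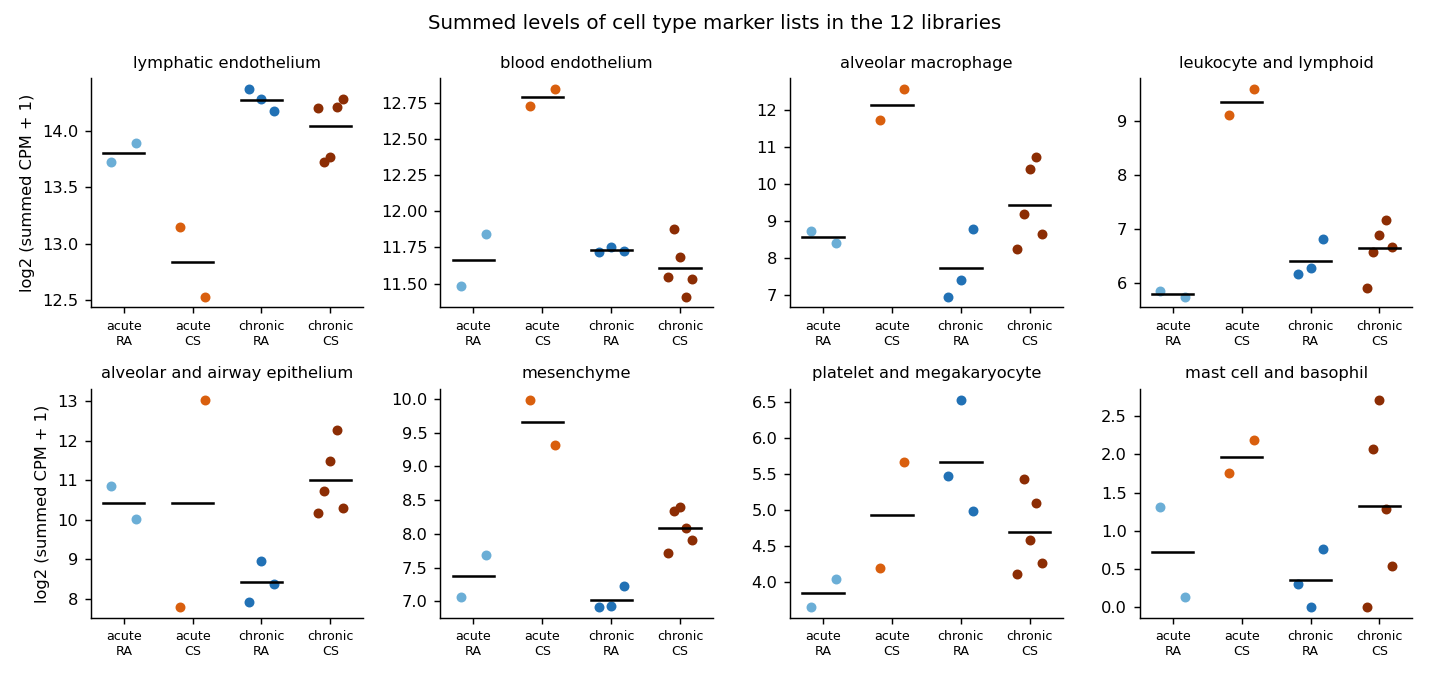
Summed CPM of 8 lists of cell type markers on a log2 scale (1 added), with 1 point per library and a black bar at the group mean of these values. In acute CS the lymphatic list is lower (5904 to 9073 CPM) and the lists of macrophages, leukocytes, mesenchyme and blood endothelium are higher than in acute RA.

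The genes whose level followed that of Hpgd most closely over the 12 libraries, among 9837 genes with a mean of at least 10 CPM, were Coro1a, Bcam, Csf2ra, Anxa3 and Tspan7, with a Pearson r of log2 CPM from 0.985 to 0.990. The acute CS libraries stand apart from the rest and set much of these values. Over the 10 other libraries r lay between 0.913 and 0.955. Coro1a, a leukocyte gene in the marker list above, was at 288 CPM on average in acute CS and at 18.3 CPM in acute RA, and Bcam, an adhesion molecule gene of endothelium and other cells, at 476 and 78.8 CPM. Among the members, Slco2a1 was closest to Hpgd (r = 0.962) and Ptgds farthest from it (0.148). Ranked by Spearman correlation, 1 of these 5 genes (Coro1a) stayed among the first 5.

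After chronic CS 0 members passed the adjusted limit with edgeR (0% of all genes), and DESeq2 called 4 (Hpgd, Slco2a1, Ptgs1 and Ptgis), where it called 3.37% of all genes. All 5 chronic CS libraries exceeded the RA controls for the transporter gene Slco2a1 and the cyclooxygenase gene Ptgs1, where 3.92% of all genes were higher without overlap, and the groups overlapped for the other 8 members. Hpgd was at 111.5, 90.9 and 76.3 CPM in chronic RA F, M1 and M2, and at 110.7, 152.6, 197.3, 186.0 and 126.8 CPM in chronic CS F, M1, M2, M3 and M4. The lowest chronic CS library thus lay just below the highest chronic RA library. Its log2 fold change was 0.74 (SE 0.23, adjusted p = 0.330 by the quasi-likelihood test of edgeR with Benjamini-Hochberg adjustment).

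Slco2a1 was at 88.7, 101.5 and 76.2 CPM in chronic RA F, M1 and M2, and at 132.7, 190.3, 221.8, 251.3 and 165.6 CPM in chronic CS F, M1, M2, M3 and M4. All 5 chronic CS libraries lay above all 3 chronic RA libraries, with a log2 fold change of 1.12 (SE 0.26, adjusted p = 0.252 by edgeR). Ptgs1 showed the same separation, from 4.42, 6.19 and 9.33 CPM in chronic RA F, M1 and M2 to 14.9, 10.1, 29.8, 25.6 and 17.2 CPM in chronic CS F, M1, M2, M3 and M4. Its log2 fold change was 1.56 (SE 0.42, adjusted p = 0.288 by edgeR).

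Ptgis was at 4.76, 5.33 and 2.53 CPM in chronic RA F, M1 and M2, and at 3.62, 13.3, 15.7, 12.4 and 10.8 CPM in chronic CS F, M1, M2, M3 and M4. The 4 male libraries of chronic CS exceeded every chronic RA library, and the female library was within their range. Its log2 fold change was 1.41 (SE 0.47, adjusted p = 0.352 by edgeR). Ptgs2 lay at 5.96 to 7.72 CPM in chronic RA, at 9.69 to 19.6 CPM in the 4 male chronic CS libraries and at 0.630 CPM in chronic CS F, which was its lowest value in the study. Its log2 fold change was 0.76 (SE 0.66, adjusted p = 0.702 by edgeR).

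The members of low level scattered widely after chronic CS. Ptges had 1 read (0.0416 CPM) in M2 and 2.15 to 7.76 CPM in F, M1, M3 and M4. Tbxas1 was also lowest in M2, at 0.208 CPM, and lay at 1.89 to 6.43 CPM in the others. Ptger4 was at 0.105 CPM in F and 2.74 to 5.04 CPM in the males, whereas chronic RA ranged from 0.288 to 7.54 CPM. Ptgir was at 1.87 and 1.97 CPM in M3 and M4 and at 0.707 CPM or less in F, M1 and M2, and Ptgds had 0 counts in F, M1 and M2 (which allows up to 0.158 CPM in F, the shallowest) and reached 1.20 CPM in M4. Each of these 5 genes overlapped chronic RA, with log2 fold changes from -0.49 (Ptger4) to 1.75 (Ptgir) and edgeR's adjusted p from 0.528 to 0.966. Without chronic RA M1 Ptgir was at 2.92, and without chronic RA F Ptges went from 1.34 to 2.10.

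Of the 10 members, 8 were higher in chronic CS and 2 were lower, and the log2 fold change had a median of 1.23 against 0.01 over all genes. At an unadjusted p under 0.05 by edgeR there were 4 (Hpgd, Slco2a1, Ptgs1 and Ptgis), where 10.9% of all genes were. DESeq2 called the same 4 members, with adjusted p-values of 0.0499, 0.00250, 0.00743 and 0.0441 in this order, while over all genes it called 595 and edgeR 0. Chronic CS libraries F, M1 and M2 had 18821438 to 22885446 counts and M3 and M4 had 45436986 and 47494020, and against all chronic RA libraries the log2 fold change of Slco2a1 was 1.05 with the former alone and 1.23 with the latter alone. The corresponding values were 0.74 and 0.75 for Hpgd, 1.48 and 1.69 for Ptgs1, and 0.12 and 1.38 for Ptgs2.

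Markers of other cells moved with chronic CS as well. Epithelial markers (8 of 8 higher) summed to 1149 to 4933 CPM in chronic CS and 242 to 493 CPM in chronic RA, and mesenchyme markers (7 of 8) to 208 to 336 CPM and 119 to 148 CPM, without overlap for either list. Alveolar macrophage markers (6 of 7 higher) reached 303 to 1689 CPM against 123 to 443 CPM. Blood endothelium (2720 to 3762 CPM against 3374 to 3456 CPM, 7 of 8 genes higher), leukocyte (59.1 to 142 CPM against 70.4 to 110.5 CPM, 5 of 8) and lymphatic markers (13569 to 19947 CPM against 18528 to 21257 CPM, 3 of 7) overlapped. Platelet markers (0 of 5 higher) summed to 16.2 to 41.8 CPM against 30.6 to 91.4 CPM, and mast cell markers (2 of 4 higher) to at most 5.57 CPM, with Mcpt4 and Ms4a2 at 0 in all 8 libraries. The part of these cells in the chronic values of the members was not tested.

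**Figure D4:**
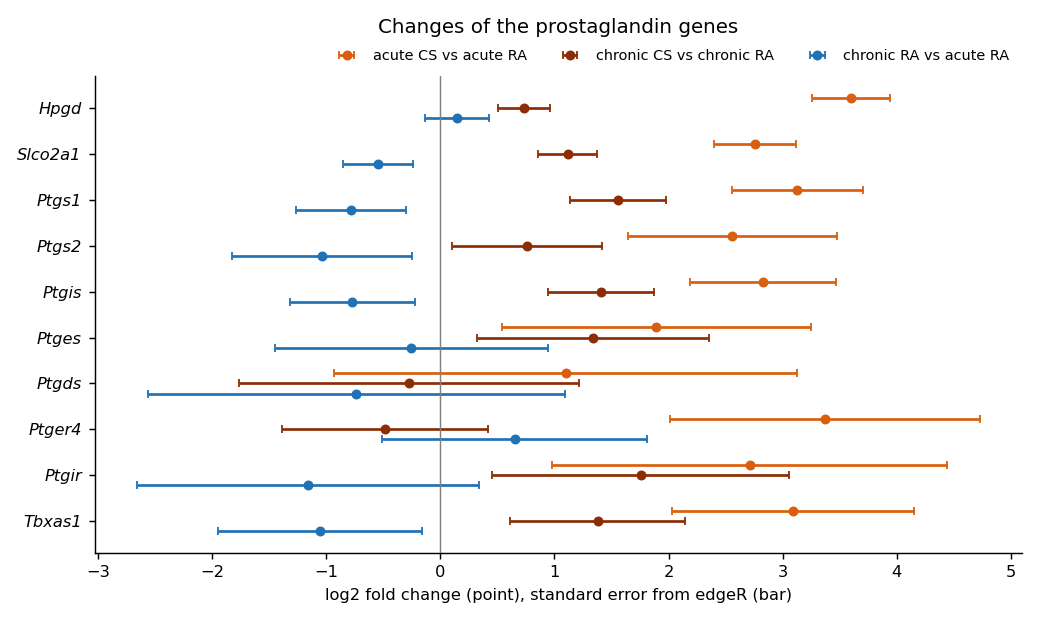
Log2 fold changes of the 10 genes in 3 comparisons (points) with standard errors from edgeR (bars). Acute changes are between 1.10 and 3.60, the chronic CS change is smaller for every gene, and in chronic RA against acute RA 8 of the 10 genes are below 0.

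Set side by side, the acute and the chronic log2 fold changes were 3.60 and 0.74 for Hpgd, 2.76 and 1.12 for Slco2a1, 3.13 and 1.56 for Ptgs1, and 2.82 and 1.41 for Ptgis. The acute value was the larger for each of the 10 members. The libraries differ in pooling as well as in length of exposure, and since the acute change entered the choice of the genes, these values are a description.

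The same fit also gave the comparison of the controls, 3 chronic RA libraries against 2 acute RA libraries. Most members were lower in the chronic controls: 8 of 10 had a negative log2 fold change, with a median of -0.75 against 0.00 over all genes. Slco2a1 was at 76.2 to 101.5 CPM in chronic RA and 120.7 to 138.7 CPM in acute RA (log2 fold change -0.55, SE 0.31). Ptgs2 was at 5.96 to 7.72 CPM against 12.4 to 15.6 CPM (log2 fold change -1.04, SE 0.79). Together with Ptgis (-0.77) and Tbxas1 (-1.05), these 4 members lay lower in every chronic RA library than in any acute RA library, where 17.0% of all genes did so. Hpgd overlapped, at 76.3 to 111.5 CPM in chronic RA and 67.7 to 99.9 CPM in acute RA (log2 fold change 0.15, SE 0.28). Marker lists also differed between the controls: epithelial markers (0 of 8 higher) summed to 242 to 493 CPM in chronic RA and 1038 to 1835 CPM in acute RA, lymphatic markers (6 of 7 higher) to 18528 to 21257 CPM and 13513 to 15243 CPM, leukocyte markers (6 of 8) to 70.4 to 110.5 CPM and 52.6 to 56.3 CPM, and platelet markers (5 of 5) to 30.6 to 91.4 CPM and 11.5 to 15.5 CPM, each without overlap. The lists of blood endothelium (5 of 8 higher), alveolar macrophages (4 of 7), mesenchyme (4 of 8) and mast cells (1 of 4) overlapped. The part of these cells in the values of the members was not tested. Library size without TMM factors moved the median of all genes in this comparison to -0.10.

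Around the members, 37 other genes of prostanoid and leukotriene metabolism were examined, of which 35 were tested (Pla2g10 and Ptgdr had too few counts). After acute CS 26 were higher and 9 lower, the median log2 fold change was 0.32 against 0.04 over all genes, and 2 of 35 passed the adjusted limit, where 3.47% of all genes did. Both rose. Pla2g4a, the cytosolic phospholipase that releases arachidonic acid, went from 4.60 and 6.58 CPM in acute RA F and M to 21.1 and 40.9 CPM in acute CS F and M (log2 fold change 2.47, SE 0.53, adjusted p = 0.0274 by edgeR). Alox5ap, the protein that presents arachidonic acid for leukotriene synthesis, went from 1.62 and 1.15 CPM to 21.6 and 8.79 CPM (log2 fold change 3.45, SE 0.79, adjusted p = 0.0377 by edgeR). In a fit of the acute groups alone neither passed (adjusted p = 0.0962 for each from edgeR). Neither passed without acute CS F (0.0544 and 0.260), acute RA F (0.244 and 0.216) or acute RA M (0.174 and 0.306), nor did Pla2g4a without acute CS M (0.130). Alox5ap had a log2 fold change of 2.66 without acute CS F, and 13.3% of its exon bases overlap Gm19719. DESeq2 called 6 of the 35 genes, which were these 2 with Pla2g15, Akr1b3, Ptgfr and Alox5 (the last 4 named after their values were seen), and 2009 of 20042 genes in all. In the same libraries the alveolar macrophage markers summed to 3373 to 6070 CPM in acute CS and 339.5 to 420 CPM in acute RA, and the leukocyte markers to 550 to 770 CPM and 52.6 to 56.3 CPM. The part of these cells in the values of Pla2g4a, Alox5ap and the other pathway genes was not tested.

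By step, the arachidonate release list had 5 of 7 tested genes higher and 1 past the limit after acute CS, and its most abundant gene, Mgll, a monoglyceride lipase, was at 149.5 ± 38.0 CPM in acute RA and 165 ± 7.95 CPM in acute CS (SD, n = 2 each). Of the other prostanoid synthases 7 of 8 were higher and 0 past edgeR's limit, with Ptges3, a cytosolic synthase of prostaglandin E2, at 113 ± 10.9 and 122 ± 19.8 CPM (SD, n = 2 each). Other receptors had 5 of 7 higher and 0 past the limit of edgeR, and their most abundant gene, the thromboxane receptor gene Tbxa2r, was at 144 and 212 CPM in acute RA F and M and 99.1 and 117.8 CPM in acute CS F and M (log2 fold change -0.72, SE 0.29, adjusted p = 0.255 by edgeR). Other transporters had 1 of 4 higher, with Slco2b1 at 201 and 153 CPM in acute RA and 79.7 and 165 CPM in acute CS, and 0 past the limit of edgeR. The other breakdown enzymes, led by Zadh2 at 23.1 ± 2.98 and 28.9 ± 4.17 CPM (SD, n = 2 each), had 3 of 3 higher and 0 past the limit of edgeR. Of the leukotriene and lipoxygenase enzymes 5 of 6 were higher and 1 passed, while the most abundant, the leukotriene A4 hydrolase gene Lta4h, was at 152 ± 1.90 and 136 ± 10.4 CPM (SD, n = 2 each).

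After chronic CS the 35 genes divided into 17 higher and 18 lower, with a median log2 fold change of -0.07 against 0.01 over all genes. With edgeR 0 passed the adjusted limit, and 5 had an unadjusted p under 0.05, where 10.9% of all genes did. DESeq2 called 1 of them and 595 of 17644 genes in all. The gene it called was Cbr2, a carbonyl reductase of the lung, which is named after its values were seen. It was at 7.02, 7.08 and 18.7 CPM in chronic RA F, M1 and M2 and at 46.3, 58.9, 145.9, 263 and 75.9 CPM in chronic CS F, M1, M2, M3 and M4, without overlap (log2 fold change 3.43, SE 1.05, adjusted p = 0.330 by edgeR and 0.0166 by DESeq2). In acute CS it was at 424 CPM in F and 15.7 CPM in M, so that its highest and lowest acute values fell in the libraries where the epithelial markers were also highest and lowest, and the part of epithelial cells in its values was not tested. Pla2g4a was at 5.13 to 10.6 CPM in chronic RA and 2.83 to 6.49 CPM in chronic CS (log2 fold change -0.62, SE 0.36, adjusted p = 0.548 by edgeR), on the other side of 0 from its acute change. Alox5ap was at 1.35 to 1.50 CPM in chronic RA and 2.03 to 10.1 CPM in chronic CS (log2 fold change 1.65, SE 0.57, adjusted p = 0.367 by edgeR), without overlap.

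Between the RA controls 21 of the 35 genes were higher and 14 lower in chronic RA, with a median log2 fold change of 0.14 against 0.00 over all genes. With edgeR 0 passed the adjusted limit (0% of all genes), and 3 (Slco2b1, Ptger2 and Cbr2) had an unadjusted p under 0.05, where 7.01% of all genes did. DESeq2 called 2 of them (Slco2b1 and Ptger2) and 279 of 17644 genes in all. Slco2b1, an organic anion transporter, was at 424, 617 and 587 CPM in chronic RA F, M1 and M2 and at 201 and 153 CPM in acute RA F and M (log2 fold change 1.62, SE 0.36, adjusted p = 0.375 by edgeR). Ptger2, which encodes the EP2 receptor for prostaglandin E2 and was singled out after its values were seen, was at 47.9, 69.0 and 61.8 CPM in chronic RA F, M1 and M2 and at 20.2 and 19.8 CPM in acute RA F and M (log2 fold change 1.57, SE 0.30, adjusted p = 0.215 by edgeR). Both were thus higher in every chronic RA library, in contrast to most members, and neither passed the limit of edgeR in the fit of all 12 libraries. In edgeR's fit of the RA groups alone Ptger2 passed (adjusted p = 0.0478), where 42 of 18368 genes did. Cbr2 was lower in every chronic RA library, at 7.02 to 18.7 CPM against 24.7 to 114 CPM in acute RA (log2 fold change -2.66, SE 1.12, adjusted p = 0.700 by edgeR). The epithelial markers were lower in the same libraries, at 242 to 493 CPM against 1038 to 1835 CPM, and the part of epithelial and other cells in the values of these pathway genes was not tested.

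**Figure D5:**
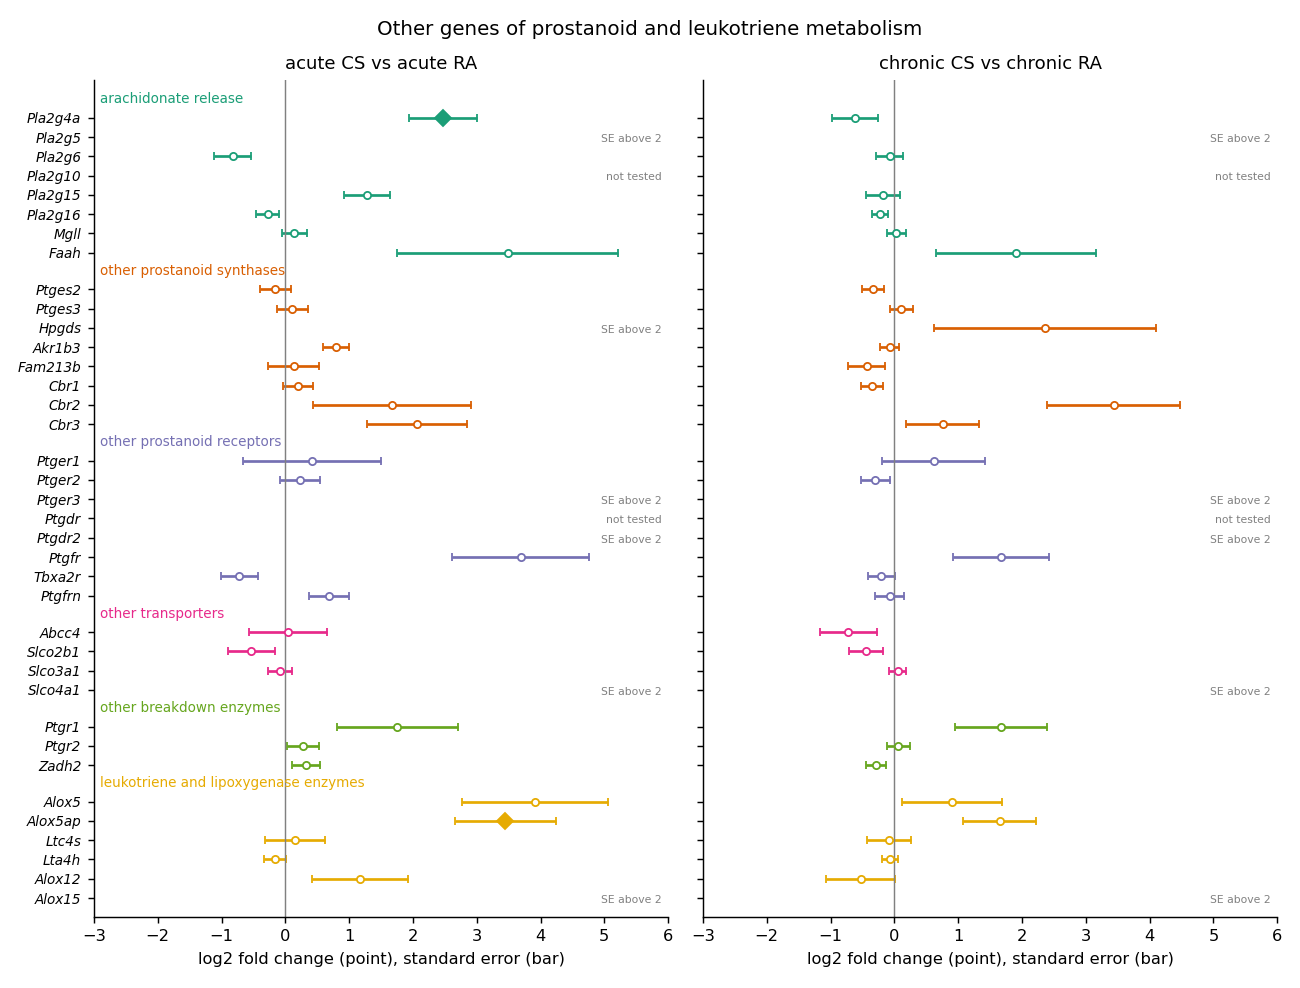
Log2 fold changes (points) and standard errors (bars) of 37 further genes by step of the pathway, after acute CS and after chronic CS. Filled diamonds are past an adjusted p under 0.05, which were Pla2g4a and Alox5ap after acute CS, and genes that were not tested or had a standard error above 2 have no point.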

How the data were processed

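RNA of sorted lung LECs was measured in 12 libraries. The authors made the cDNA with SMART-Seq v4 and Nextera XT, which do not mark strand, trimmed reads with Skewer, and used FastQC 0.11.9, Minion and STAR on GRCm38 to count reads per gene. The deposited values are whole-number counts per Ensembl gene, without normalization. The release of the annotation and whether strand was used are not given in the sources used here. Gene names and exon lengths came from GENCODE M21, which holds 52489 of the identifiers and lacks 147, to which 0.0110% of the counts or less belonged in each library.

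Groups were taken from the labels. Counts were analysed with R 4.3.3, edgeR 4.0.16 (TMM factors, filterByExpr leaving 21440 genes, all 12 libraries fitted by group, quasi-likelihood F-test, Benjamini-Hochberg adjustment over all genes, limit 0.05) and DESeq2 1.42.0, and with Python 3.11.15, pandas 2.3.3 and matplotlib 3.10.9. Log2 CPM of single libraries used a prior count of 2, and FPKM the union of a gene's exons. Within groups, chi-square values per gene between 2 libraries had medians of 6.07 or more, so none was a duplicate. The edgeR fit was also run on counts simulated from its own dispersions, with groups alike except for known changes. Such counts hold no shifts in cell types, so nothing is drawn from them here. Fold changes of low genes depend on the prior count of the fit. Depth and the floor of 3 counts are given in the report for the libraries with the fewest and the most counts.

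The members and all lists were chosen with earlier results of these data known. Beside the 10 members, the genes named are pathway genes past edgeR's limit in any comparison, the gene of highest mean CPM in each pathway list, the 5 genes most correlated with Hpgd and the markers. Ptger2, Cbr2, Pla2g15, Akr1b3, Ptgfr and Alox5 were singled out after their values were seen. The promoter sequences are RefSeq's, and 9 of 10 members had one. The alternatives were DESeq2, library size without TMM, no filter, sex as a covariate, a replicate block, robust estimation, only the groups compared, the chronic CS libraries by depth, and leaving out each library.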

Additional observations from a re-analysis of the deposited data

Results flagged for a closer look

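Ptgds stood out for a single library in chronic CS. Chronic CS M4 had 1.20 CPM (53 counts), against 0.279 CPM in M3 and 0 counts in F, M1 and M2, and its gap to the next library, 0.767 of the group's range, was over Dixon's limit of 0.710 for 5 libraries. The 10 members were tested in this way and chance passes about 1 in 20 groups, so 1 such gene among 10 is no more than a value to look at again.

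Hpgd had unlike changes after the 2 exposures. Its acute log2 fold change exceeded the chronic one by 2.86 (SE 0.39), and this excess lay between 2.57 and 3.17 under the alternatives. The gene was chosen for its acute change, which this value contains, so it is a description and no test is drawn from it.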

How the results depend on the processing

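The log2 fold changes of Hpgd, Slco2a1, Ptgs1, Ptgis and Tbxas1 kept their sign after acute and after chronic CS under every alternative. After acute CS, 4 members were past the limit: 6 with DESeq2, 2 with a replicate block and 2 with only the groups compared, and between 0 and 3 with 1 library left out. The corresponding 2 pathway genes became 6 with DESeq2, 0 with a replicate block, 0 with only the groups compared and 0 to 1 with 1 library left out. Over all genes the 745 calls moved as well, to 2009 of 20042 genes with DESeq2, 73 of 21440 with the block and 139 of 19815 with only the groups compared. After chronic CS, where edgeR called 0, DESeq2 called 4 members and 1 pathway gene, and between the RA controls DESeq2 called 2 pathway genes and the fit of only the groups compared called 1 (Ptger2), with 42 of 18368 genes in all. With the replicate block, libraries of the same sex and number were paired, although the correlations of their deviations were all below 0.1 (at most 0.0693). With 2 libraries in each acute group, the values for F and M are the same by construction. These correlations from few libraries cannot decide whether the labels pair the libraries. No RA library has the label M3 or M4, so under the block the chronic CS fold changes rested on F, M1 and M2. Under this block the sign turned after chronic CS for Ptgs2 (-0.40), Ptges (-0.39) and Ptgir (-1.07), and between the RA controls for Hpgd (-0.15) and Ptges (0.30). Ptgds was at 0.99 with chronic CS M3 and M4 alone, -6.81 with F, M1 and M2 alone and -6.83 under the block, where the fitted values rest on libraries at 0 counts and are no bound, and with F, M1 and M2 alone Ptgir was at -0.087. With 1 library left out, Ptgds ranged from -1.38 to 1.97 after acute CS and from -2.17 to 0.52 after chronic CS, and Ptger4 from -1.03 to 0.25 after chronic CS. Between the RA controls Hpgd then ranged from -0.12 to 0.46, Ptges from -1.01 to 0.18 and Ptger4 from -0.090 to 1.20. A lone library in a group was assumed to vary like the other groups. The cause of these shifts was not tested. Ptgds, Ptgir and Ptges had at most 475 counts in any library, which limits their precision.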
